A study of Homo sapiens with 6 samples.

Results

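Long intergenic noncoding RNA genes, abbreviated LINC genes, are transcribed from stretches of the genome between protein-coding genes, and their RNAs carry no long reading frame. The LINC genes described here were chosen by their symbol, which starts with LINC followed by a digit or a hyphen, and selected on a mean normalized count of at least 22 in the authors' deposited table. Of the 19830 genes in that table, 352 had such a symbol, and 124 of these reached the minimum. The other 228 lay under it and had no adjusted p. Total RNA came from PANC-1, a long-established human cell line derived from a pancreatic ductal adenocarcinoma. Cells of 2 libraries had received SOX9 siRNA and those of 2 libraries control siRNA, both at 25 nM with Lipofectamine, so that the control cells were transfected too. Wells were pooled at harvest, 48 hours after transfection. No source says that the libraries of a group were grown on separate days, so the p-values cover only the variation among these libraries, some or all of which may be technical.

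The authors' deposited table gives, for each gene, a mean normalized count over the libraries, a log2 fold change with its standard error, and a DESeq2 p-value. It holds no value for a single library, so neither the level of a LINC gene in each library nor the overlap of the groups can be shown. A gene was called, and said to rise or fall, at an adjusted p under 0.05 after Benjamini-Hochberg adjustment over the 14063 genes with an adjusted p, which are the tested genes. The intervals below are 95% Wald intervals of 1.96 standard errors each way. SOX9, the siRNA target, stood at 55.9% of control in the authors' deposited table, with an interval from 39.2% to 79.8% and 0.0643 as its DESeq2 adjusted p, so it was not itself called. Its negative sign is the only basis for reading each fold change as SOX9 siRNA over control, since the headers name no numerator. The line's label was checked against epithelial genes: the mean normalized counts of KRT8, KRT18 and KRT19 were 203350, 130452 and 99583 in the authors' deposited table. EPCAM and KRT7, also on that list, had far fewer, 1699 and 354 there. Leukocyte, endothelial and acinar markers with a row lay at 3.87 or lower in the authors' deposited table.

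SOX9 is a DNA-binding factor that marks duct cells and progenitors of the pancreas. LINC genes have no common mechanism. Some of their RNAs hold proteins away from their targets, some act on the gene next door through the act of their own transcription, some serve as precursors of microRNAs or small nucleolar RNAs, and some were later found to be translated into small proteins. The symbol says only where a gene was annotated, and it stays in older annotations after a gene has been renamed for a role.

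No LINC gene passed the test. By the DESeq2 test of the authors' deposited table, 0 of the 124 rose and 0 fell, beside 1.81% of all tested genes called, of which 0.868% rose and 0.939% fell. At the share of all tested genes, 2.24 of the 124 would be called, so the count of 0 lies close to the background. At an adjusted p under 0.1 the authors' deposited table gave 3 LINC genes, or 2.42%, beside 2.62% of tested genes. At an unadjusted p under 0.05 there were 8 LINC genes, or 6.45%, of which 5 had higher and 3 lower values, beside 11.1% of tested genes. These counts describe the list, were not matched for mean normalized count, and were not tested.

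**Figure D1:**
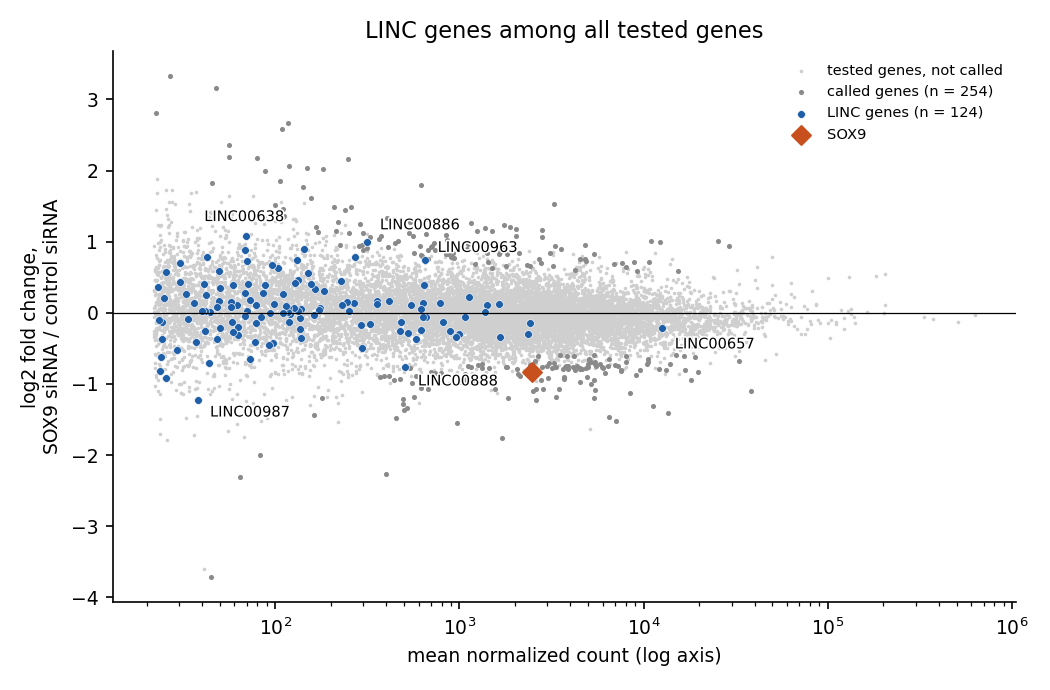
Log2 fold change (SOX9 siRNA relative to control siRNA, vertical axis) against mean normalized count (log axis) for the 14063 tested genes, with the 124 LINC genes in blue, the 254 called genes in dark grey and SOX9 as a diamond. The LINC genes lie mostly at the left of the cloud, between log2 values of -1.22 and 1.08, and none is among the called genes.

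The fold changes of the LINC genes centred near 0. Their median log2 fold change in the authors' deposited table was 0.05, with quartiles of -0.20 and 0.27, and the values ran from -1.22 for LINC00987 to 1.08 for LINC00638. A positive value was found for 71 of the 124, or 57.3%, and a negative one for 53. Over all tested genes of the authors' deposited table the median was -0.02 and 47.9% were positive. The LINC genes had fewer reads than most genes: their median mean normalized count was 112, against 1279 over all tested genes. In bulk RNA, a lower value per cell and fewer cells with the RNA cannot be told apart.

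The comparison was repeated within ranges of mean normalized count, as a description. With 22 to 100 counts, the median log2 fold change of 59 LINC genes was 0.03 and that of all tested genes 0.10 in the authors' deposited table. With 100 to 500 counts, 40 LINC genes had a median of 0.09 and 28 of them were positive, or 70.0%, beside 0.06 and 57.3% for all tested genes in that range. With 500 counts or more, 25 LINC genes had a median of -0.06 and 10 were positive, or 40.0%, beside -0.04 and 42.6%. The sign therefore went from mostly positive at low counts to mostly negative at high counts in the LINC genes and in all tested genes. None was called in any range by the DESeq2 test, where the share of all tested genes called was 0.599%, 1.87% and 2.07% from the lowest range to the highest. By the same test, an unadjusted p under 0.05 was found in the lowest range for 2 of 59 LINC genes and 82 of 2172 tested genes. In the middle range it was found for 3 of 40 and 261 of 2515, and in the highest for 3 of 25 and 1222 of 9373.

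How large a change had to be before a LINC gene could be called depended on its standard error. The median standard error of the 124 genes was 0.39 on the log2 scale in the authors' deposited table, and 0.22 over all tested genes. The largest p that was called corresponds to a Wald statistic of 3.32, so a LINC gene at the median standard error needed a 2.46-fold change, against 1.64-fold for a tested gene at its median. The fold needed ran from 1.47 for LINC01578 to 6.35, and 34 of the 124 needed less than 2-fold. In the rest, an estimate of exactly 2-fold would not have been called at this depth. For 56 LINC genes the interval lay inside 2-fold in both directions, and for 13 of them inside 1.5-fold. For the other 68 the interval included a 2-fold change in at least 1 direction. By point estimate 20 LINC genes, or 16.1%, differed by 1.5-fold or more, 13 higher and 7 lower, beside 9.29% of tested genes. These 2 shares were not matched for mean normalized count or standard error, so they do not show that LINC genes changed more. Shares past 2-fold within ranges of count are given below.

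**Figure D2:**
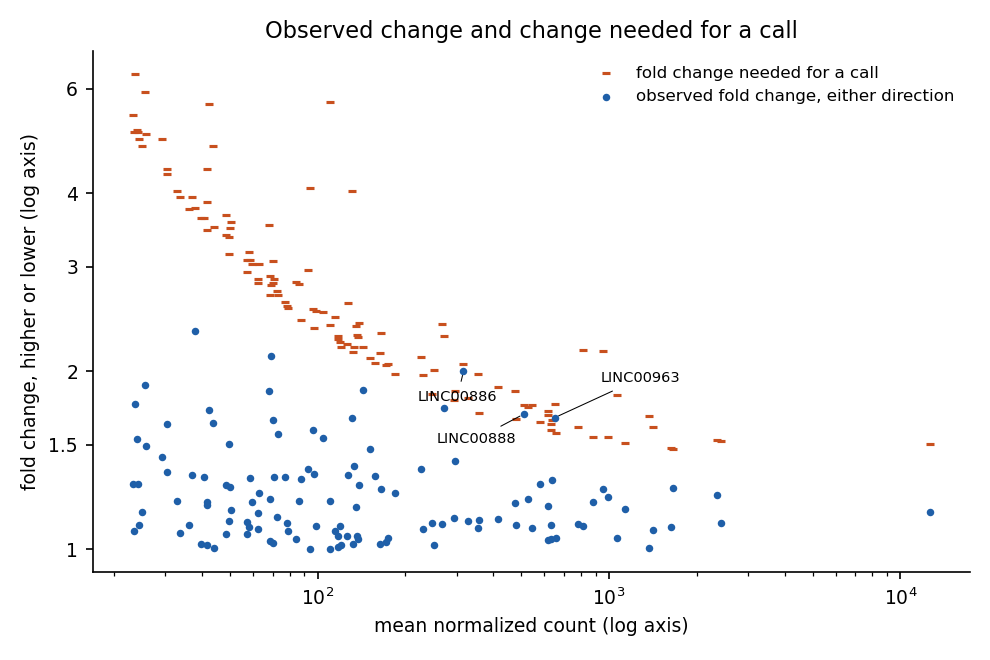
Observed fold change in either direction (blue points) and the fold change that would have been called (orange dashes) for each of the 124 LINC genes, against mean normalized count, on log axes. Each point lies under its own dash, and LINC00886, LINC00888 and LINC00963 come nearest to theirs.

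LINC00886 came nearest to a call among genes with a higher value. The authors' deposited table gave it a mean normalized count of 316 and a 2.00-fold higher value with SOX9 siRNA, with an interval from 1.31 to 3.05. Its log2 fold change was 1.00 with a standard error of 0.31, and its DESeq2 adjusted p of 0.0666 was close to that of SOX9 itself. Ordered by p, it was number 296 of the tested genes and SOX9 number 289. LINC00963, an RNA studied in prostate cancer, followed with 651 counts and a 1.67-fold higher value (interval 1.20 to 2.33, DESeq2 adjusted p 0.0984) in the authors' deposited table. Both estimates lay above control, and neither passed the threshold.

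LINC00888, now SNHG33, a small nucleolar RNA host gene, came nearest to a call among genes with a lower value. It had 509 counts in the authors' deposited table and stood at 59.1% of control, with an interval from 42.4% to 82.4%. On the log2 scale this is -0.76 (standard error 0.24), and the DESeq2 adjusted p in the authors' deposited table was 0.0816. The 300-base promoters of these 3 genes, from 250 bases before the annotated start to 50 after it, are shown because they are the starts nearest to a call. They are RefSeq sequences of build GRCh38.p14, written 5′ to 3′ on the gene's strand. LINC00886 is on the minus strand at chr3:156817013-156817312, LINC00963 on the plus strand at chr9:129488410-129488709, and LINC00888 on the plus strand at chr3:183447358-183447657, the first of 2 promoters that the RefSeq table holds for it. Capitals mark the letters ATTGG, the reverse complement of the CCAAT box, found in LINC00888 121 and 59 bases before the start. The sequences of LINC00886 and LINC00963 held none of the motifs searched below.
LINC00886: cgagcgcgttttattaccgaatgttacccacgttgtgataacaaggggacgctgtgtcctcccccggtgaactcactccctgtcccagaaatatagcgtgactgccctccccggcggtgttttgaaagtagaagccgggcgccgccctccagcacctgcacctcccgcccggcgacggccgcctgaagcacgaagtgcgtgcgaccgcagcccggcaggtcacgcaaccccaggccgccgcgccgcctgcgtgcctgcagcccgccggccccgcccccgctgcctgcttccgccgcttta
LINC00963: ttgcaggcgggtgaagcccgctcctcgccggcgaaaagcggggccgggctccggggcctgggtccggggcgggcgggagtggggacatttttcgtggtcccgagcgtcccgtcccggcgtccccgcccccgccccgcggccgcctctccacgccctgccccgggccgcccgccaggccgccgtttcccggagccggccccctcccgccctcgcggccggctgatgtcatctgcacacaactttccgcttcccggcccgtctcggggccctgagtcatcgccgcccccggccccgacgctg
LINC00888: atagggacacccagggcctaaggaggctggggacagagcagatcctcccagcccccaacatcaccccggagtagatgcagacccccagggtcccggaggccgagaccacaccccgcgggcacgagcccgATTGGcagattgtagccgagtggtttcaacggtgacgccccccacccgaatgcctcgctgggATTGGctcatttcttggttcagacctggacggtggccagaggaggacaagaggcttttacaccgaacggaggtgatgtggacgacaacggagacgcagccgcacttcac

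A further 5 LINC genes had an unadjusted p under 0.05, 3 with higher and 2 with lower values. LINC01137, now LITATS1, an RNA known from TGF-β signalling, was 1.86-fold higher in the authors' deposited table with an interval from 1.17 to 2.96 and a DESeq2 adjusted p of 0.188. LINC00638, now VESTAR, was 2.12-fold higher from only 69.3 counts in the authors' deposited table, where its DESeq2 adjusted p was 0.251. LINC00941, singled out after its value was seen, was 1.73-fold higher in the authors' deposited table (DESeq2 adjusted p 0.345). LINC00987 had the lowest value of all 124, 42.8% of control from 37.8 counts, with an interval from 19.5% to 93.7% and 0.373 as DESeq2 adjusted p in the authors' deposited table. LINC01578, now CHASERR, stood at 78.7% of control (interval 62.6% to 99.0%, DESeq2 adjusted p 0.406) there. Next in p among lower values was LINC00641, at 71.0% of control in the authors' deposited table (DESeq2 adjusted p 0.497). The lower end of the count range thus gave the extremes in both directions, LINC00638 and LINC00987. These were the only 2 LINC genes past 2-fold, 1.61% beside 1.75% of tested genes. With 22 to 100 counts, where both lay, the share past 2-fold was 3.39% of LINC genes beside 5.71% of tested genes. With 100 to 500 counts it was 0% beside 2.90%, and with 500 or more 0% beside 0.523%.

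**Figure D3:**
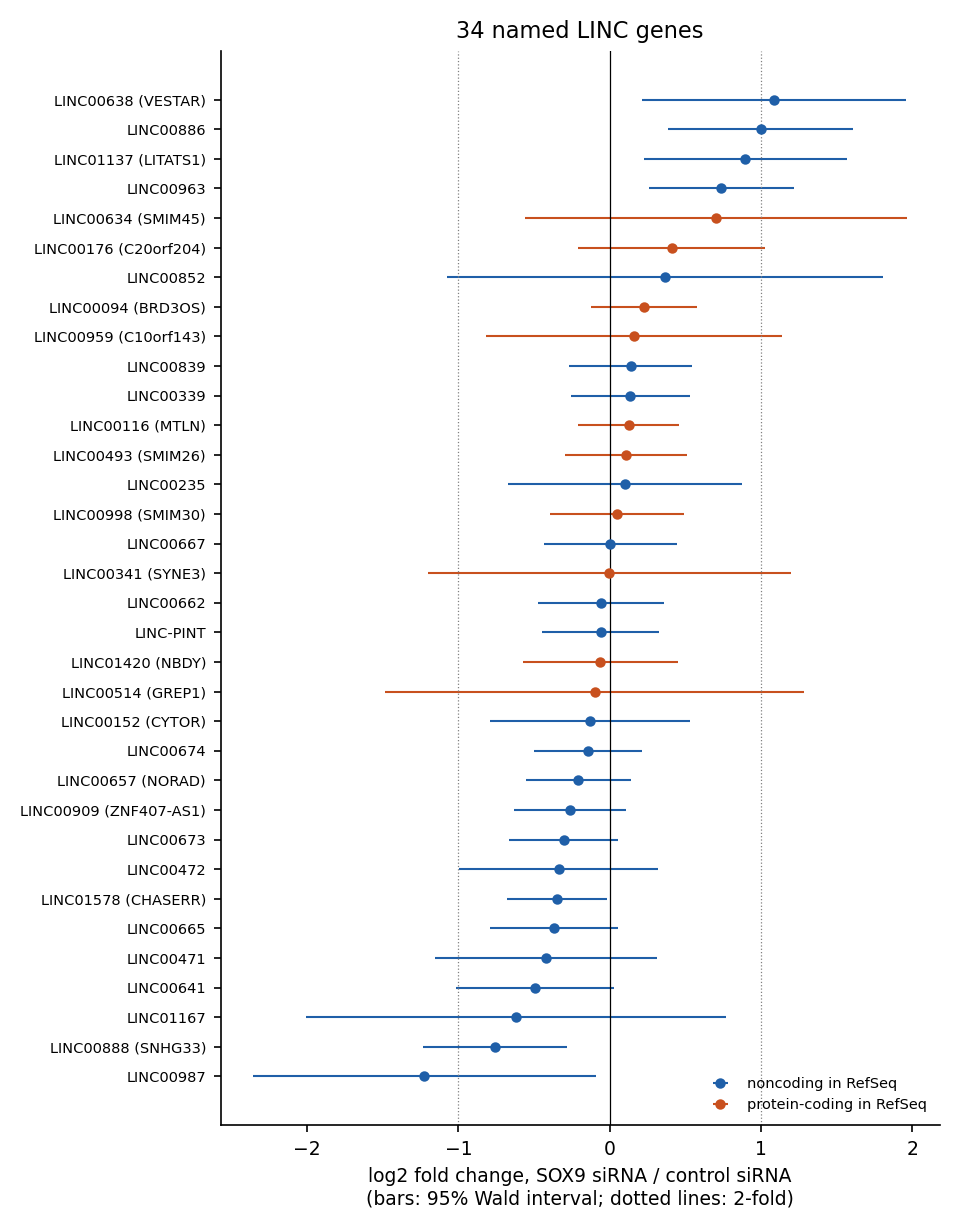
Log2 fold change of the 34 named LINC genes with 95% Wald intervals, in order of value, with genes that RefSeq now lists as protein-coding in orange and dotted lines at 2-fold. LINC00638, LINC00886, LINC01137 and LINC00963 have intervals above 0, and LINC00987, LINC00888 and LINC01578 have intervals under 0.

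Reads were spread very unevenly over the LINC genes. Mean normalized counts are read support and not levels, since they are not divided by transcript length. Together the 124 genes had 48121 of them, 0.101% of all mean normalized counts in the authors' deposited table. LINC00657 alone held 26.2% of that sum. This gene is now NORAD, a cytoplasmic RNA that binds PUMILIO proteins and is known for a role in chromosome stability. It had 12620 counts in the authors' deposited table and stood at 86.6% of control, with an interval from 68.0% to 110.2%. In all, 9 LINC genes had 1000 counts or more.

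Next in count came LINC00674, LINC00673 and LINC01578, of which LINC00673 is described with SOX9 below. LINC00674 had 2421 counts and stood at 90.5% of control (interval 70.6% to 116%) in the authors' deposited table. LINC01578 is CHASERR, whose transcription is known to hold down its neighbour CHD2, a chromatin remodeller. CHD2 stood at 98.6% of control in the authors' deposited table, with an interval from 80.2% to 121%, beside the 78.7% of CHASERR. LINC00667 had 1376 counts and stood at 100.3% of control (interval 73.8% to 136%) in the authors' deposited table. For none of these did the interval reach a 2-fold change.

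The list of LINC genes with published names or roles held 44 symbols, of which 29 were among the 124 and 15 were not. Of the 29, 0 rose and 0 fell by the DESeq2 test in the authors' deposited table, beside 1.81% of all tested genes called. By the same test 4 of the 29 had an unadjusted p under 0.05, beside 11.1% of tested genes. The values of 15 were positive and those of 14 negative, with a median log2 fold change of 0.09 over the 29. LINC-PINT, a transcript induced by p53, stood at 95.9% of control from 657 counts (interval 73.4% to 125%) in the authors' deposited table. LINC00472, studied as a tumour suppressor in breast cancer, stood at 79.2% (50.2% to 125%) there. LINC00152, now CYTOR, stood at 91.3% with an interval from 57.7% to 144% in the authors' deposited table. CYTOR has a near-identical copy in MIR4435-2HG, which stood at 98.3%, and rules for dividing reads between the pair are not given in the sources used here, which leaves both values uncertain. LINC01296, which RefSeq lists as the pseudogene DUXAP9, is uncertain for the same reason.

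Among the list's other well-counted members, LINC00665 had the lowest value after LINC00888, at 77.5% of control with an interval from 57.9% to 104% in the authors' deposited table. LINC00662 stood at 96.2%, LINC00339 at 109.9% and LINC00839 at 110.0% of control in the authors' deposited table, each with an interval inside 1.5-fold. LINC00261, which lies by the endoderm factor FOXA2 and was singled out after its value was seen, stood at 83.6% of control with a standard error of 0.27 in log2. FOXA2 itself stood at 90.4% of control (interval 67.3% to 121%) in the authors' deposited table. No member of the list with 500 counts or more lay outside 1.5-fold by point estimate except LINC00888 and LINC00963.

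LINC genes on both sides of SOX9 were in the table. Along chromosome 17, LINC00673, an RNA studied in pancreatic cancer, is the third gene of the RefSeq order on one side of SOX9, and LINC00511 is the fourth. LINC00673 had 2352 counts, nearly as many as the 2483 of SOX9, and stood at 80.9% of control with an interval from 63.0% to 104% and 0.576 as DESeq2 adjusted p in the authors' deposited table. LINC00511, named for its place, had only 25.5 counts and stood at 52.8% (interval 18.5% to 151%) in the authors' deposited table. On the other side SOX9-AS1 was 2.11-fold higher in the authors' deposited table, with an interval from 0.85 to 5.23 (DESeq2 adjusted p 0.593). LINC01152, further out on that side, had a mean count under the minimum, and its log2 fold change in the authors' deposited table was 1.21 with a standard error of 0.93. The intervals of these 4 noncoding genes included no change. SLC39A11, a zinc transporter gene further out on the side of LINC00673 and named after its value was seen, stood at 131% of control (interval 101% to 169%, DESeq2 adjusted p 0.400) in the authors' deposited table.

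The promoter of LINC00673 is shown as the well-counted LINC start nearest to SOX9 in gene order. It lies on the minus strand at chr17:72592755-72593054 of GRCh38.p14, from RefSeq, and capitals mark CTTTGT, the reverse complement of the SOX-type core ACAAAG, 227 bases before the start. A match of these letters is a description and not a measured site.
LINC00673: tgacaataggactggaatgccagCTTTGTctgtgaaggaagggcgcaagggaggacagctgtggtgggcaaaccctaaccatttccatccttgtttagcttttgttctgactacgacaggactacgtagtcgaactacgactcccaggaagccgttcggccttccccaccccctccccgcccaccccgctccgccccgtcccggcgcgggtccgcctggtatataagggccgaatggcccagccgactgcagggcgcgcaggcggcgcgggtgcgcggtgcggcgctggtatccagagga

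RefSeq now lists 10 of the 124 LINC genes as protein-coding. None of the 10 was called by the DESeq2 test in the authors' deposited table, beside 1.81% of all tested genes. By the same test none had an unadjusted p under 0.05, beside 11.1% of tested genes. The median log2 fold change of the 10 was 0.12, with 7 positive and 3 negative, beside 0.03 for the 113 listed as long noncoding RNAs. The best counted was LINC00116, now MTLN, a small protein of the inner mitochondrial membrane, with 1636 counts and 109% of control (interval 86.5% to 138%) in the authors' deposited table. LINC00493, now the mitochondrial protein SMIM26, stood at 108% (81.5% to 143%) and LINC00094, now BRD3OS, at 117% (91.6% to 149%) there. LINC01420, now NBDY, a microprotein of the mRNA decapping complex in P-bodies, stood at 95.7% (67.1% to 136%) and LINC00998, now the small membrane protein SMIM30, at 103% (76.1% to 141%) in the authors' deposited table. The intervals of these 5 genes excluded a 1.5-fold higher value.

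The other 5 had fewer reads and wider intervals. LINC00176, now C20orf204, was 1.33-fold higher (interval 0.87 to 2.04) and LINC00634, now SMIM45, 1.63-fold higher (0.68 to 3.90) in the authors' deposited table. LINC00959, now C10orf143, stood at 112% of control and LINC00514, now GREP1, at 93.3%, from 49.4 and 23.4 counts in the authors' deposited table. LINC00341 is an older name of SYNE3, a nesprin of the outer nuclear membrane, but SYNE3 has a row of its own in the authors' deposited table. The row named LINC00341 stood at 99.9% of control with a standard error of 0.61 in log2, and the SYNE3 row at 93.6% with one of 0.44. The list of LINC genes reported to encode small proteins held 14 symbols, of which 7 were among the 124. By the DESeq2 test 0 of the 7 rose and 0 fell, beside 1.81% of all tested genes called. Positive values were found for 6 of the 7, and the median log2 value of the 7 in the authors' deposited table was 0.13.

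LINC00461 and LINC00925 are now MIR9-2HG and MIR9-3HG, hosts of microRNA genes that give the same mature miR-9-5p, a microRNA known from neural tissue. They were singled out after their values were seen. The mature sequence is shown because both hosts share it, from RefSeq build GRCh38.p14, at chr5:88666902-88666924 on the minus strand and chr15:89368032-89368054 on the plus strand, with the seed, bases 2 to 8, in capitals.
miR-9-5p: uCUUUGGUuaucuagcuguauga
The log2 fold change of LINC00461 was -0.03 with a standard error of 0.33 from 163 counts, and that of LINC00925 was 0.01 with a standard error of 0.55 from 44.0 counts, per the authors' deposited table. LINC00669, now MIR924HG, had a log2 fold change of -0.65 with a standard error of 0.43 and 0.638 as DESeq2 adjusted p in the authors' deposited table. These values are of the host transcripts and not of mature microRNAs.

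Some LINC genes share a start region with another gene. Promoters were in the RefSeq table for 101 of the 124. Only pairs of starts from which the genes ran away from each other were counted. By this rule, 19 LINC genes had a start within 1000 bases of the start of a tested gene on the opposite strand. They made 17 head-to-head pairs, 2 of which joined 2 LINC genes, LINC00667 with LINC00526 and LINC01116 with LINC01117. The starts lay 35 to 849 bases apart. The log2 fold changes had the same sign in 8 of the 17 pairs in the authors' deposited table, and Spearman's rho over the pairs was -0.02, a description over genes measured in the same libraries. The sources used here do not say whether the counting took strand into account, so reads of overlapping or antisense transcripts may be shared between partners.

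Of the head-to-head partners in the 17 pairs, 1 was called, beside 1.81% of all tested genes. This count was not tested against that share. CAPN15, a calpain-type protease whose start lies 305 bases from that of LINC00235, fell to 44.0% of control (interval 32.0% to 60.5%, DESeq2 adjusted p 0.000306) in the authors' deposited table. LINC00235 stood at 107% of control, with an interval from 62.8% to 183% in the authors' deposited table. LINC01137, which was not called, was 1.86-fold higher by point estimate. Its partner ZC3H12A, an RNase of inflammatory mRNAs 137 bases away, stood at 103% in the authors' deposited table. The difference within each pair was not tested. LINC01184, now SLC12A2-DT, and the chloride transporter gene SLC12A2 had close log2 values of -0.28 and -0.31 in the authors' deposited table. LINC-PINT stood at -0.06 beside -0.15 for MKLN1, and LINC00909, now ZNF407-AS1, at -0.26 beside 0.26 for ZNF407, on the log2 fold change scale of the authors' deposited table. These partner genes were named after their values were seen, and only CAPN15 passed the test.

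**Figure D4:**
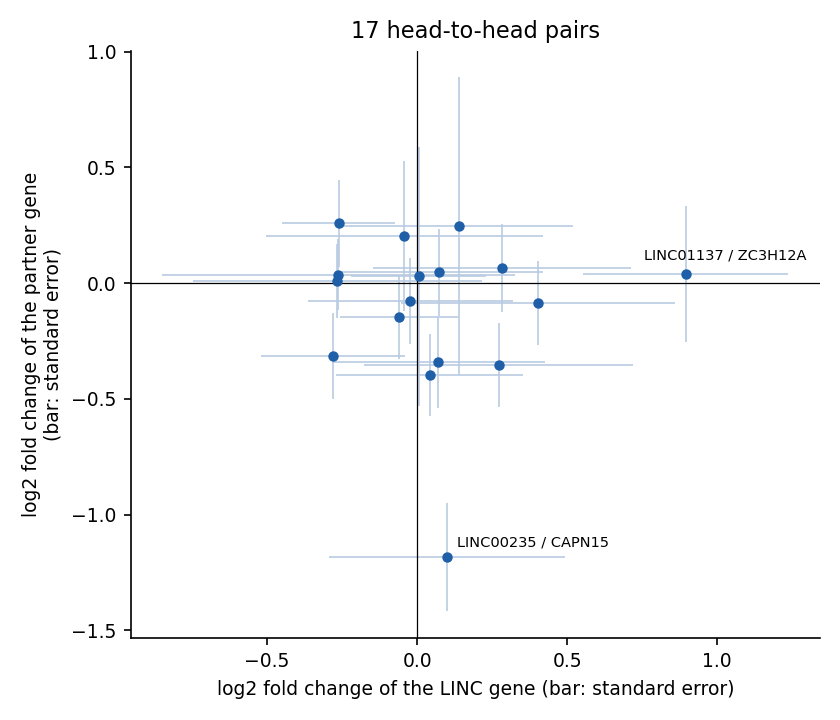
Log2 fold change of the LINC gene (horizontal axis) and of its head-to-head partner (vertical axis) in 17 pairs, with bars of 1 standard error. The points scatter around the origin in all 4 quadrants, with CAPN15 far under 0 beside LINC00235 near 0.

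RefSeq has renamed 11 of the 124 LINC genes after a gene next to them, 8 as divergent transcripts and 3 as antisense transcripts, and 4 of the 11 had the same sign as that gene in the authors' deposited table. Taking the nearest tested gene on each side of every LINC gene gave 248 pairs with 247 different neighbours. LINC genes next to each other, such as LINC00667 and LINC00526, were counted from each side, so the pairs are not all distinct. Such LINC genes are also among the 247 neighbours, and none of them was called. The sign was the same in 133 pairs, or 53.6%. Among the neighbours 6, or 2.43%, were called, beside 1.81% of tested genes, and 3 of these 6 shared the sign of their LINC gene.

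The called neighbours described here had differing roles. CFAP46, a protein of motile cilia, rose 2.86-fold next to LINC01167, which stood at 65.1% of control with an interval from 24.8% to 171% in the authors' deposited table. The centromere protein gene CENPM, next to LINC00634, fell to 34.2% of control, per the authors' deposited table. PTMA, prothymosin alpha, fell to 46.7% next to LINC00471, which stood at 74.7% with an interval from 45.0% to 124% in the authors' deposited table. M6PR, a mannose 6-phosphate receptor, fell to 60.5% (DESeq2 adjusted p 0.0445) in the authors' deposited table next to LINC00987, the LINC gene with the lowest value. Apart from LINC00987, the LINC genes beside called neighbours had intervals that included no change.

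Motifs were counted in the 300-base promoters, on both strands, with only the first listed promoter of each symbol on the standard chromosomes. ACAATG, a core bound by SOX factors, was found in 6 of the 101 LINC promoters, or 5.94%, beside 11.0% of the 27305 promoters kept by this rule. The other SOX-type core, ACAAAG, was in 12, or 11.9%, beside 16.0%, and either core was in 17, or 16.8%, beside 24.6%. GTTGCC, letters found in sites of RFX factors, was in 9.90% beside 12.2%, CCAAT in 39.6% beside 35.7%, and TATAAA in 10.9% beside 12.0%. The LINC promoters had a median GC content of 63.3% against 58.3% of the 27305 promoters, and the part of base composition in these shares was not tested. The median log2 fold change in the authors' deposited table was 0.03 for the 17 LINC genes with either SOX-type core and 0.06 for those without. By single core, it was -0.24 for the 6 with ACAATG beside 0.06 without it. For the 12 with ACAAAG it was 0.10, beside 0.05 without it. These differences were not tested. A missing match says only that the letters are not in this window.

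Other noncoding genes, grouped by symbol, give the setting of these values. Of 359 antisense RNA genes 1 rose and 0 fell by the DESeq2 test, and their median log2 value in the authors' deposited table was 0.13. Of 292 genes with a LOC symbol and 19 microRNA host genes none was called, with medians of 0.14 and 0.07. Among 19 small nucleolar RNA host genes 0 rose and 1 fell, with a median of -0.10 and 14 negative values in the authors' deposited table. LINC00888, renamed SNHG33 but kept under its LINC symbol here, was lower too. The list of 44 other named long noncoding RNAs had 32 tested members, with a median of -0.12. It shares members with the small nucleolar RNA host, microRNA host and antisense classes, so it is not a separate class. Of the 32, 1 rose, the imprinted RNA MEG3 at 2.89-fold (interval 1.97 to 4.23), and 1 fell, SNHG16 to 52.2% of control (interval 36.9% to 73.8%), in the authors' deposited table. SNHG16 is also the gene that fell among the small nucleolar RNA host genes. Beside each class stands the share of 1.81% of all tested genes called, and no class was tested against another. The classes were not matched for mean normalized count. Its median was 94.9 for antisense RNA, 78.3 for LOC, 153 for microRNA host and 943 for small nucleolar RNA host genes, and 1358 for the list. Over all tested genes the median log2 fold change was 0.10 at 22 to 100 counts and -0.04 at 500 or more. The share called was 0.599% and 2.07% in these 2 ranges.

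**Figure D5:**
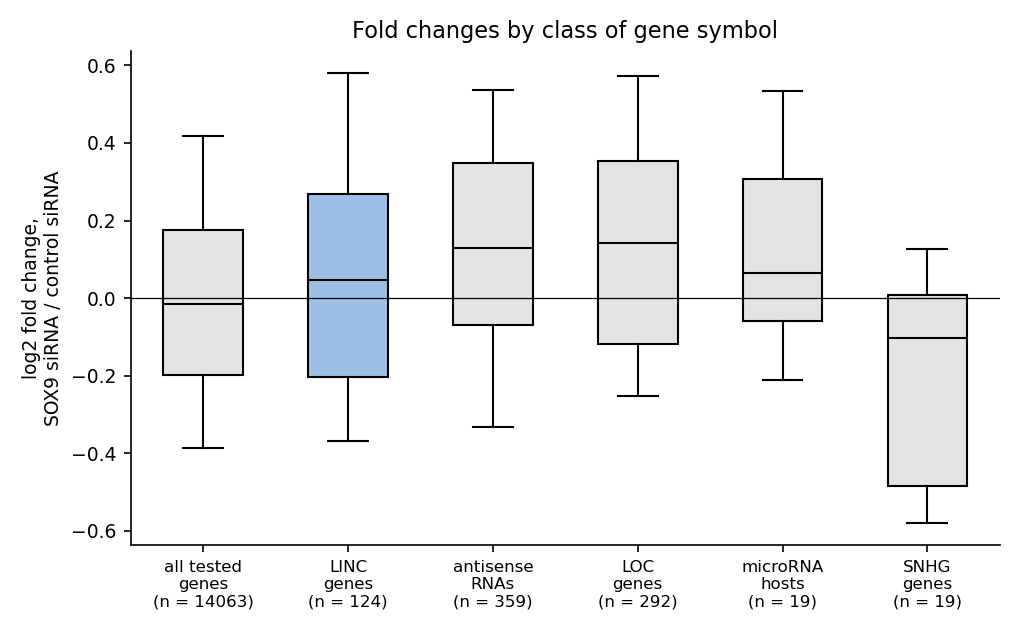
Log2 fold changes of all tested genes, the LINC genes and 4 other classes of noncoding gene by symbol: lines are medians, boxes are quartiles, and whiskers reach the outermost genes within the 10th to 90th percentiles. The box of the LINC genes, from -0.20 to 0.27, crosses 0, and that of the 19 SNHG genes lies lowest.

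The minimum that chose the LINC genes fell among genes of few reads. Just inside it were LINC00852 with 23.1 counts and a log2 fold change of 0.36, and LINC00514 with 23.4 counts and one of -0.10, in the authors' deposited table. Just outside were LINC01125 with 20.9 counts and a log2 fold change of 1.33, and LINC01347 with 20.7 counts and one of -0.56 there. Standard errors of these 4 genes ran from 0.71 to 0.77 in log2, so the minimum did not part precise values from imprecise ones.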

How the data were processed

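The values are those of the authors' comparison of 2 SOX9 siRNA and 2 control siRNA libraries of PANC-1 RNA. For the authors' processing, HISAT2 2.0.5, featureCounts and DESeq2 1.18.1 are named in the submitters' processing notes, without settings. The notes also name hg19 and mm10 as builds, with no role, and strand settings are not given in the sources used here. Per the file headers, the mean normalized count deposited by the authors is a signal, the mean over libraries after size-factor scaling. Fold changes and their standard errors are log2 values of the authors, the Wald statistic is the authors' score, and each p-value, raw or adjusted, is as deposited. No counts per library are in this table, so depth per library is not analysed here, and no edgeR fit could be made. The 2 SOX9 ChIP samples were not analysed here.

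From these values the following were computed with Python 3.11.15, pandas 2.3.3, numpy 2.4.6, scipy 1.17.1 and matplotlib 3.10.9: percent of control, 95% Wald intervals, the fold needed for a call, medians and counts. RefSeq tables of GRCh38.p14 gave current symbols for all 124 LINC genes, gene order, promoters for 101 and microRNA sequences. Named are, besides SOX9, the 4 genes of smallest p in each direction, the 8 of highest count, those now protein-coding, those of the list of published names with at least 500 counts, those beside a called neighbour and the 2 on each side of the count minimum. A called neighbour is not reported here. Any other gene is named for its place or after its value was seen. The members, lists and rules were chosen with earlier results of these data known, so no pattern here is independent support of them. Recomputed steps were tested on simulated data.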

Additional observations from a re-analysis of the deposited data

How the results depend on the processing

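The count of LINC genes called by the DESeq2 test was 0 as deposited, and also 0 after centring on the median of all tested genes (-0.02) and with adjustment over every gene. Minimums of 50 and 100, leaving out the 10 genes now protein-coding, an adjusted p under 0.01 and the test against a 1.5-fold change could only give 0 by construction, so they say nothing about stability. The smallest adjusted p among them was 0.0666 as deposited and, by the same Wald test, 0.0605 centred, 0.0935 over every gene and 1.0 against 1.5-fold. At an adjusted p under 0.1 there were 3 calls, 2 of them higher and 1 lower, and at an unadjusted p under 0.05 there were 8. The median log2 fold change was 0.05 at both minimums, 0.03 without the protein-coding genes, 0.06 centred and 0.01 weighted by the inverse squared standard error. Centring moves each gene by the same amount, and LINC00341, nearer to 0 than that shift, became 0.0136. No paired analysis was possible because the table holds no values per library, and leaving out a replicate could not be run for the same reason. Few reads limit the result: 59 of the 124 genes had mean counts under 100.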

Other observations

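For 4 of the 124 LINC genes, or 3.23%, the standard error was over 1.5 times the median of tested genes within 20% of their mean normalized count, beside 4.70% of all tested genes. They were chosen after their values were seen. LINC00842 had 1.93 times that error, with a log2 fold change of 0.27 and a standard error of 0.76 in the authors' deposited table. LINC00482 had 1.66 times it, with a log2 fold change of 0.74 and a standard error of 0.61 there. LINC00472 and LINC00152 had 1.64 and 1.59 times it, each with a standard error of 0.34 in the authors' deposited table. Which library sets these errors is not in the table.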
